A study of Mus musculus with 8 samples.

Results

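The 10 genes described here, Pecam1, Cdh5, Kdr, Tek, Tie1, Flt1, Erg, Vwf, Eng and Emcn, are established markers of endothelial cells, the cells that line blood vessels. They were taken by name from the mouse gene annotation, as 10 of 21938 protein-coding genes on nuclear chromosomes. The rule uses no measured value, but the members were chosen with earlier results of these data known. The peaks assigned to each gene were those that shared at least 1 base with its gene body or with the 25 kb to either side of any annotated transcription start site (TSS), and this stretch is called the gene's region. Chromatin was prepared from nuclei of skeletal muscle of WT C57/Bl6J mice aged 10 to 12 weeks, with no treatment named in the labels. It was immunoprecipitated and sequenced (ChIP-seq) with antibodies to the glucocorticoid receptor (GR), RNA polymerase II (Pol2), H3K27ac, H3K4me1, H3K4me3 and CTCF. There was 1 library per antibody and 1 peak list for each, so the values carry no replicate error and no difference between genes was tested. Of 2 input libraries, 1 belonged with CTCF and H3K4me3 and the other with the remaining antibodies. The labels name no sorting of nuclei by cell type, and sequencing depth per library is unknown here.

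Capillaries run along every muscle fibre, so endothelial nuclei are a regular part of muscle tissue beside the nuclei of the fibres. Endothelial identity is set by transcription factors of the ETS family, of which Erg is one, together with SOX, GATA and forkhead factors. In a transcribed gene, H3K4me3 lies at the start site, H3K27ac at active promoters and enhancers, and H3K4me1 at enhancers whether active or not. GR is a hormone-activated transcription factor, Pol2 is the enzyme that transcribes the gene, and CTCF is an insulator protein. In nuclei taken from whole tissue, a mark carried by few nuclei and a weak mark in many nuclei cannot be told apart.

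The start sites of these genes carried H3K4me3 in 9 of 10 cases, H3K4me1 in 7, H3K27ac in 4, Pol2 in 3, and GR or CTCF in 0. Here a peak counted when it shared a base with the 1 kb to either side of a TSS. Across all protein-coding genes the share with a peak there was 61.5% for H3K4me3, 65.8% for H3K4me1, 52.4% for H3K27ac, 47.1% for Pol2, 43.4% for GR and 7.54% for CTCF. The count for H3K4me3 was thus above the background share, and that for H3K4me1 was near it. The H3K27ac count was slightly below it, near enough that 10 genes do not set it apart. The Pol2 count was also below its background share, and again 10 genes do not set it apart. The GR count of 0 was below its share, without a test. A CTCF count of 0 among 10 genes is close to the background. Within the larger regions, H3K4me3 peaks were found at 9 of 10 genes (71.8% of all genes), H3K4me1 at 8 (78.2%), H3K27ac at 7 (65.6%), GR at 4 (60.8%), CTCF at 4 (33.0%) and Pol2 at 3 (59.1%). The regions of these genes were long, with a median of 127 kb against 56.0 kb for all protein-coding genes, which gives more room for a peak.

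**Figure D1:**
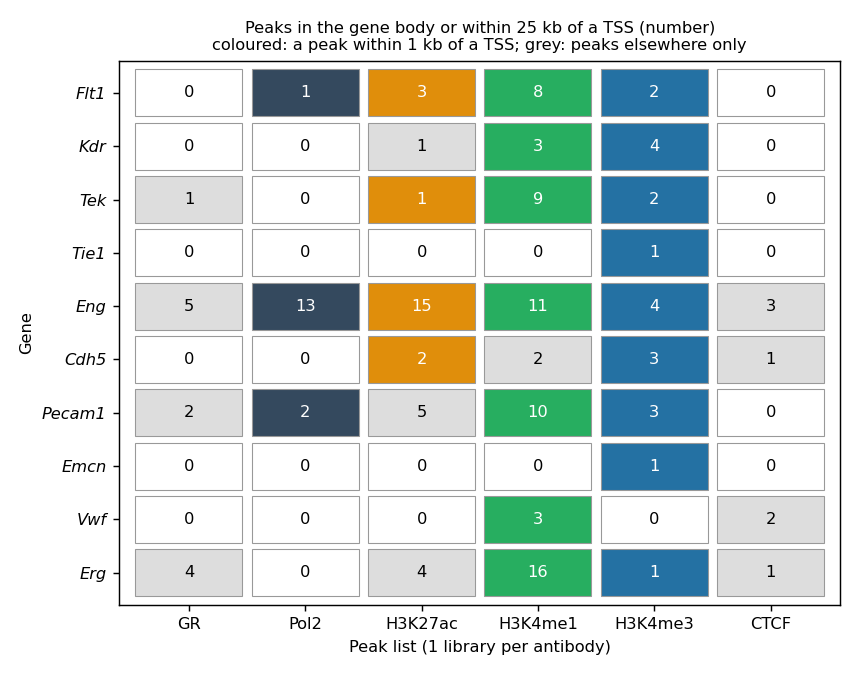
Number of peaks of each list (columns, 1 library per antibody) in the region of each of the 10 genes (rows). Coloured cells had a peak within 1 kb of a TSS, grey cells had peaks farther away only, and white cells had 0 peaks; the H3K4me3 column is coloured for 9 genes and the GR column for 0.

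The marked start sites were mostly without polymerase and receptor. No member had GR, Pol2, H3K27ac, H3K4me1 and H3K4me3 all within 1 kb of a TSS, a combination found at 38.2% of protein-coding genes. Of the 9 members with H3K4me3 at a TSS, 0 had GR, 3 had Pol2 (Pecam1, Flt1 and Eng) and 4 had H3K27ac (Cdh5, Tek, Flt1 and Eng). Among the 13486 genes with H3K4me3 at a TSS, 69.7% also had GR there, 76.1% had Pol2 and 84.3% had H3K27ac. Most of those genes had stronger H3K4me3 than any member, as given below. The shares among genes with H3K4me3 as weak as that of the members were not counted. Pol2 and H3K27ac were both present at the start sites of Flt1 and Eng, whose combination with H3K4me1 and H3K4me3 was shared by 1134 genes (5.17%). Tie1 and Emcn had H3K4me3 as their single mark there, a state shared by 168 genes (0.766%). H3K4me3 with H3K4me1 and no other list, counted over all starts of a gene, was the state of Kdr and Erg and was shared by 1541 genes (7.02%). In Erg these marks lay at different starts, H3K4me1 at the most upstream one and H3K4me3 at an internal one, so no single Erg start carried both. Pecam1 had Pol2, H3K4me1 and H3K4me3, and Cdh5 had H3K27ac and H3K4me3, each shared by 78 genes (0.356%).

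**Figure D2:**
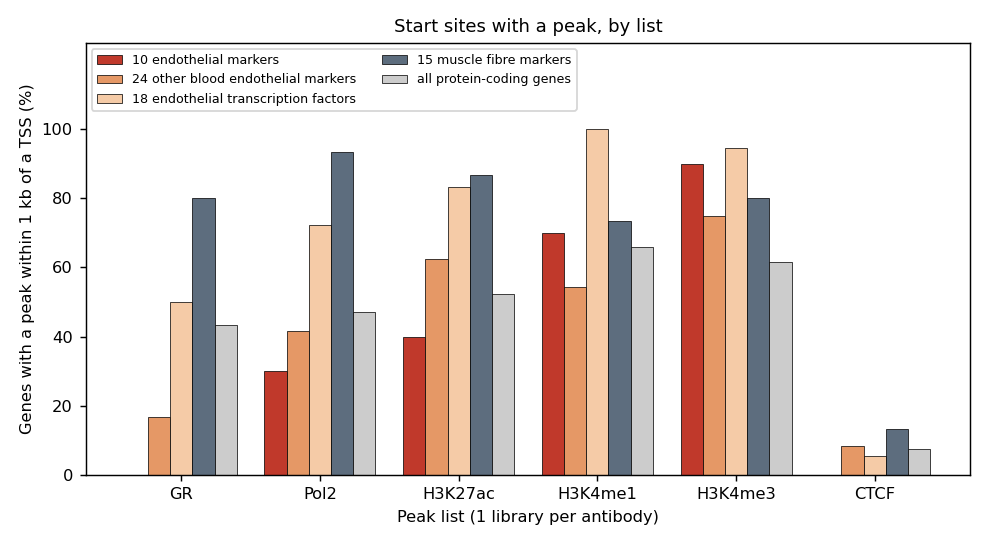
Share of genes (vertical axis, %) with a peak within 1 kb of a TSS in each list (horizontal axis, 1 library per antibody). From left to right the bars of each list show the 10 endothelial markers, 24 other blood endothelial markers, 18 endothelial transcription factors, 15 muscle fibre markers and all protein-coding genes; the 10 markers have no bar for GR or CTCF.

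The H3K4me3 peaks at these start sites were weak. The authors deposited a fold enrichment and a −log10 q for each H3K4me3 peak, which are used here as the peak's own values. The highest −log10 q within 1 kb of a TSS had a median of 8.29 over the 9 members with such a peak, against 102 over the 13486 protein-coding genes with one. The median of the highest fold was 6.75 for the members and 33.5 for those genes. None of the 9 members exceeded the median −log10 q of the whole H3K4me3 list, 46.6, while 75.5% of the genes with H3K4me3 at a TSS did. Flt1 stood highest with a −log10 q of 25.3, above 15.4% of those genes. Tek followed with 18.5, Eng with 16.8 and Kdr with 16.1. Cdh5 had 8.29, Pecam1 had 8.23 and Emcn had 5.27. Tie1, with 2.40, and Erg, with 2.30, lay above 0.215% and 0.119% of the genes.

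**Figure D3:**
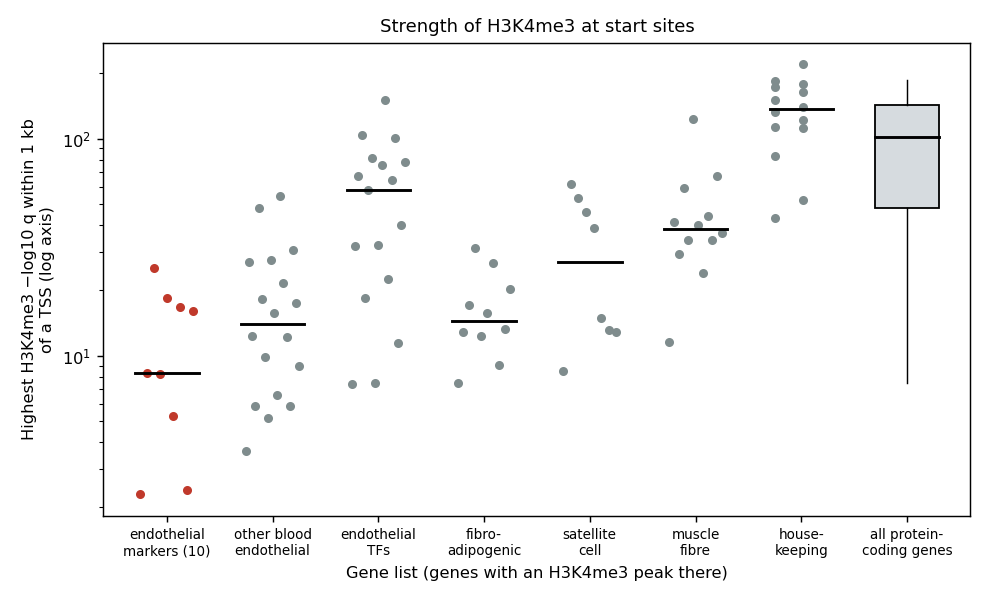
Highest −log10 q of an H3K4me3 peak within 1 kb of a TSS (vertical log axis) for genes with such a peak, by gene list (horizontal axis). Points are genes, horizontal lines are medians, and the box and whiskers for all protein-coding genes span the quartiles and the percentiles 5 to 95; the endothelial markers, at the far left, run from 2.30 to 25.3.

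The receptors for vascular endothelial growth factor (VEGF) had the clearest promoter among the 10, at Flt1. Flt1 encodes VEGF receptor 1, which binds the ligand tightly and limits how much reaches the main receptor, and lies on chromosome 5 from 147561604 to 147726011 on the minus strand. Its start was covered by an H3K4me3 peak of 1984 bases with a fold of 13.5, wider than 90.6% of the list. Within it lay an H3K4me1 peak of 1923 bases, 3 H3K27ac peaks of 340, 133 and 198 bases and a Pol2 peak of 143 bases over exon 1. Along the remaining gene and its upstream flank there were 7 further H3K4me1 peaks, of 266 to 1011 bases, without another list. A weaker H3K4me3 peak of 266 bases (fold 4.19) lay in intron 1. The nearest GR peak lay 44107 bases from a Flt1 TSS, outside the region.

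Kdr encodes VEGF receptor 2, the main signalling receptor for VEGF, and lies on chromosome 5 from 75932827 to 75978458 on the minus strand. Its start had an H3K4me3 peak of 1052 bases with a fold of 9.22 and an H3K4me1 peak of 1258 bases, and no Pol2 or H3K27ac. A pair of further H3K4me3 peaks lay in intron 1, with midpoints 1748 and 3734 bases downstream of the TSS and folds of 5.81 and 4.16. The first intron of Kdr is known to hold an endothelial enhancer, and no H3K4me1, H3K27ac or GR peak had its midpoint in that intron here. At the other end of the gene, exon 30, which is the last, held an H3K4me3 peak of 278 bases (fold 5.36) next to an H3K27ac peak of 151 bases. The nearest GR peak was 72063 bases from the TSS and the nearest Pol2 peak was 161731 bases away.

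Tek and Tie1, which encode partner receptors, differed in how much of their chromatin was marked, in regions of 161 kb and 50.3 kb. Tek encodes TIE2, the receptor for the angiopoietins that keep vessels stable, and lies on chromosome 4 from 94739289 to 94874976. Its start carried an H3K4me3 peak of 764 bases (fold 10.1), an H3K27ac peak of 810 bases, wider than 83.0% of that list, and an H3K4me1 peak of 1997 bases. Of its 9 H3K4me1 peaks, 4 lay in intron 1, the intron known to hold the Tek enhancer used in endothelial transgenes. A single GR peak of 138 bases lay in the same intron, 7160 bases from the nearest TSS. It sat between H3K4me1 peaks that ended at 94746440 and began at 94747629 and overlapped neither. Tie1, on chromosome 4 from 118471191 to 118490061, encodes a partner of TIE2 and had 1 peak over all 6 lists, an H3K4me3 peak of 300 bases with a fold of 3.72. Its nearest H3K4me1 peak was 42732 bases from a TSS and its nearest GR peak 52065 bases.

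Eng had the most peaks, but most of them lay at its neighbours. Eng encodes endoglin, a co-receptor for ligands of the TGF-beta and BMP families, and lies on chromosome 2 from 32646595 to 32682669. Its region held 51 peaks, against a median of 10 over all protein-coding genes. The region also contains the start sites of Ak1, which encodes the adenylate kinase abundant in muscle, and of Fpgs, an enzyme of folate metabolism. All 5 GR peaks in the region lay outside the Eng gene body, 3 nearest to Ak1 and 2 nearest to Fpgs. Of 13 Pol2 peaks, 10 lay upstream toward Ak1, 2 lay near Fpgs, and 1, of 161 bases, covered the Eng start. The Eng start itself had an H3K4me3 peak of 1592 bases (fold 8.77), an H3K4me1 peak of 2662 bases and 3 H3K27ac peaks. Intron 1 of Eng held 1 further H3K4me1 peak, of 2854 bases, with 2 H3K27ac peaks of 142 and 189 bases inside it.

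The adhesion molecules of the endothelial junction had their widest marks inside the gene. Pecam1, on chromosome 11 from 106654217 to 106750628 on the minus strand, encodes the junction protein also known as CD31. At the start of its main transcript there was a Pol2 peak of 109 bases over exon 1. H3K4me3 peaks of 210 and 340 bases lay in intron 2, with midpoints 473 and 1351 bases downstream of that start. An H3K4me1 peak of 2234 bases lay upstream of it, 801 bases from the nearest annotated Pecam1 TSS. Its widest marks were H3K4me1 peaks of 12826 bases around intron 14 and 9382 bases around intron 13, wider than 98.1% and 96.6% of the H3K4me1 list. The peak of 12826 bases also covered the start of an internal Pecam1 transcript. The intron 13 peak also held peaks of all lists except CTCF, namely 2 GR peaks of 218 and 278 bases, a Pol2 peak of 130 bases, an H3K4me3 peak of 220 bases and H3K27ac peaks of 985 and 339 bases. The nearer GR peak lay 11356 bases from the nearest annotated Pecam1 TSS, and its midpoint was 40469 bases downstream of the main start. Cdh5, on chromosome 8 from 104101625 to 104144511, encodes VE-cadherin, the adhesive protein of endothelial junctions. It had 3 H3K4me3 peaks in intron 1, of 196, 490 and 417 bases, an H3K27ac peak of 148 bases just upstream of the start, and an H3K4me1 peak of 7094 bases farther inside the gene with an H3K27ac peak of 463 bases in it. Its nearest GR peak was 78864 bases away and its nearest Pol2 peak 137118 bases.

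Emcn and Vwf, for a surface and a secreted protein, had few peaks. Emcn encodes endomucin, a mucin-like glycoprotein of capillary and venous endothelium, on chromosome 3 from 137341067 to 137432185. It had 1 peak over all 6 lists, an H3K4me3 peak of 196 bases in intron 1 with a fold of 5.03, and its nearest GR peak was 173193 bases from a TSS. Among all protein-coding genes, 23.3% had 1 peak or fewer in their region. Vwf encodes von Willebrand factor, a clotting protein stored in endothelial cells, on chromosome 6 from 125546774 to 125686679. It was the 1 member without H3K4me3 in its region, where the nearest such peak was 51905 bases from a TSS. Its 3 H3K4me1 peaks lay in introns 3, 6 and 14, and the last of these, of 2476 bases, covered the start of an internal transcript, which is why Vwf counted as marked at a TSS. Its 2 CTCF peaks, of 204 and 206 bases, were its only other peaks, and the first of them lay inside that H3K4me1 peak.

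Erg, the transcription factor among the 10, had H3K4me1 peaks along much of its gene. It lies on chromosome 16 from 95359169 to 95586593 on the minus strand and its protein drives many endothelial genes. Its region held 16 H3K4me1 peaks, which covered 34876 bases or 13.8% of it, against a median of 6.33% over the 10 members and 8.16% over all protein-coding genes. H3K4me1 covered more of the Eng region (48.4%) and of the Pecam1 region (25.1%). Without the gene body, within 25 kb of a TSS, 6 of the Erg H3K4me1 peaks and 2 of its GR peaks were left. Of the 16 peaks, 7 lay in intron 2 and 2 in intron 3 of the main transcript. All 4 GR peaks were in the same introns, 2 in each, and lay 9549, 13520, 55536 and 56944 bases from the nearest Erg TSS. The GR pair in intron 3, of 214 and 139 bases, was inside a single H3K4me1 peak of 7120 bases that also held H3K27ac peaks of 369 and 429 bases. A GR peak of 159 bases in intron 2 overlapped an H3K27ac peak of 237 bases and lay in an H3K4me1 peak of 2268 bases. The remaining GR peak, of 278 bases, overlapped the end of an H3K4me1 peak of 596 bases and had no H3K27ac. No Pol2 peak lay in the region, where the nearest was 115277 bases from a TSS, and H3K4me3 was limited to 1 peak of 191 bases, 340 bases from an internal start.

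**Figure D4:**
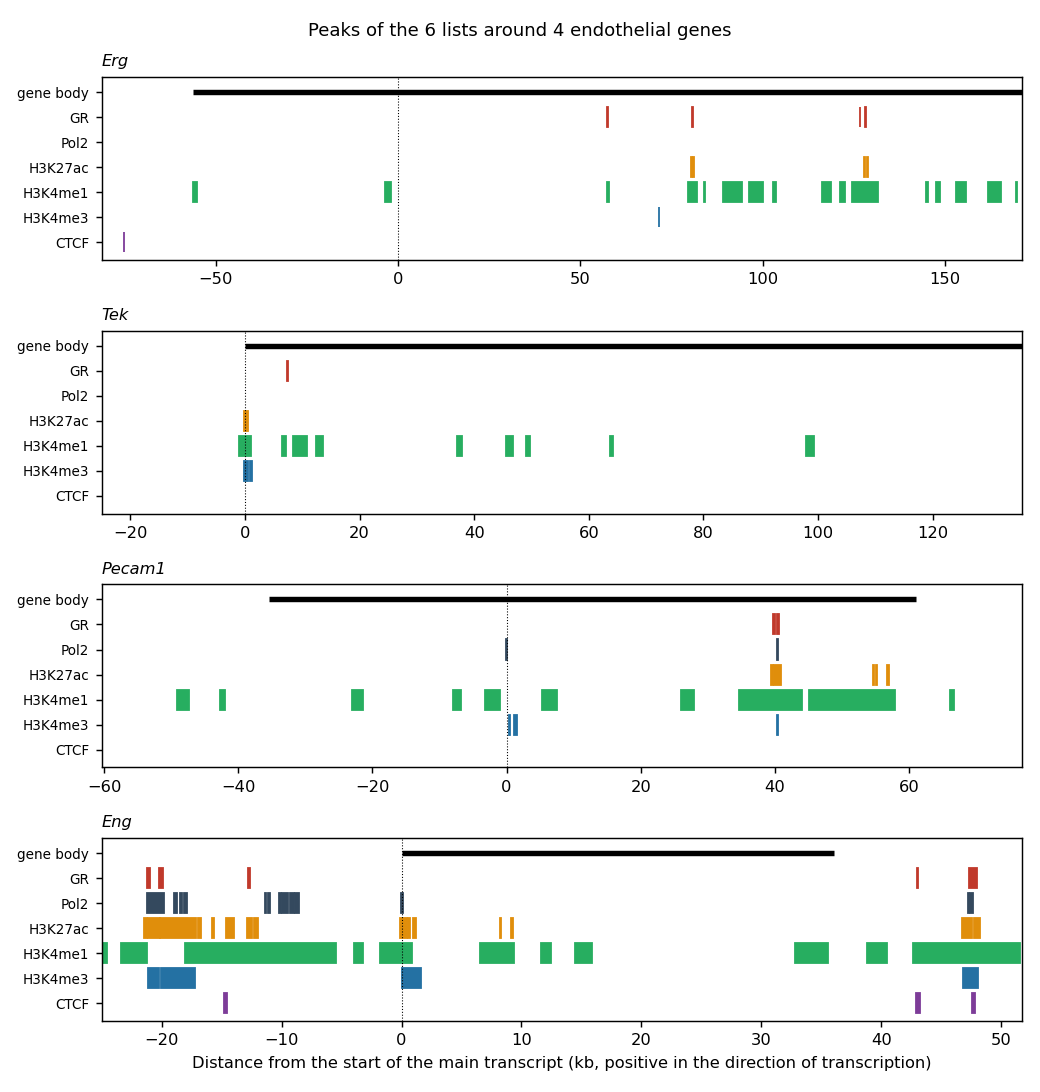
Peaks of the 6 lists (coloured bars, 1 row per list) in the regions of Erg, Tek, Pecam1 and Eng, with the gene body in black. The horizontal axis is the distance from the start of the main transcript in kb, positive in the direction of transcription; GR peaks lie in introns of Erg, Tek and Pecam1 and outside the gene body of Eng.

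Most marked elements around these genes carried H3K4me1 without further marks. Peaks of the 6 lists that shared a base were joined into 80 elements over the 10 regions. H3K4me1 was the only histone mark of 49 elements, of which 1 held GR, 1 held CTCF and 0 held Pol2. H3K4me1 with H3K27ac but without H3K4me3 was found at 5 elements, in Pecam1, Cdh5, Eng and, for 2 of them, Erg. GR was present at 2 of these, both in Erg. H3K4me3 was present at 19 elements, of which 3 held GR, 5 held Pol2 and 2 held CTCF. Of these, 2 with GR, 2 with Pol2 and both with CTCF were the elements at the starts of Ak1 and Fpgs, which leaves 1 with GR, in Pecam1, and 3 with Pol2, in Pecam1, Flt1 and Eng. The classes of elements at other genes were not counted. H3K27ac was the only histone mark of 2 elements, and 5 had no histone mark. Seen peak by peak, H3K27ac overlapped 12 of the 62 H3K4me1 peaks in these regions (19.4%, against 23.2% of all 75523), GR overlapped 7 (11.3%, against 14.8%) and Pol2 overlapped 6 (9.68%, against 9.04%). H3K4me3 overlapped 7 (11.3%, against 20.4%) and CTCF overlapped 3 (4.84%, against 4.38%). Over all 62 peaks, the shares for GR, Pol2, H3K27ac and CTCF were near the background, and that for H3K4me3 was lower, without a test. The 62 include H3K4me1 peaks at Ak1 and Fpgs, which overlapped peaks of every other list. A member's TSS was the nearest one for 52 of the 62, and the shares over those 52 were not counted.

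The GR peaks near these genes were of ordinary width. The 12 GR peaks in the regions ran from 123 to 706 bases with a median of 216, against 212 for the 23188 peaks of the GR list. Leaving out the 5 peaks at Ak1 and Fpgs, the 7 peaks in Pecam1, Tek and Erg ran from 138 to 278 bases. Of the 6 members without GR in their region, Flt1 was nearest to a GR peak and Emcn farthest. In windows of 200 bases at the peak midpoints, the half-site of the GR element (AGAACA, either strand) was found in 2 of 12 member windows (16.7%), against 17.2% of all GR peaks. The 12 include the 5 peaks at Ak1 and Fpgs, which held 0 GR half-sites within their own bases. The motif shares are therefore not those of the 7 intronic peaks alone. The ETS core in its purine form (AGGAAG, either strand) was found in 3 of 12, against 23.3% of all GR peaks, and in its CpG form (CGGAAG, either strand) in 1 of 12 (8.33%), against 14.7%. A match to these letters is a description of the sequence and not a binding site. The sequences of 4 of the 7 intronic GR peaks, at least 1 from each gene, are given to show what lay under the receptor inside an endothelial gene body. They run 5′ to 3′ on the strand of the gene, read from the GRCm38.p6 assembly, and capitals mark the GR half-site or either ETS core on either strand.
Tek intron 1, chr4:94746678-94746815, plus strand: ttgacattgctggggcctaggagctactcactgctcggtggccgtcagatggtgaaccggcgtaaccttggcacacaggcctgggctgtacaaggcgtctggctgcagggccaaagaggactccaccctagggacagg
Pecam1 intron 13, chr11:106675225-106675502, minus strand: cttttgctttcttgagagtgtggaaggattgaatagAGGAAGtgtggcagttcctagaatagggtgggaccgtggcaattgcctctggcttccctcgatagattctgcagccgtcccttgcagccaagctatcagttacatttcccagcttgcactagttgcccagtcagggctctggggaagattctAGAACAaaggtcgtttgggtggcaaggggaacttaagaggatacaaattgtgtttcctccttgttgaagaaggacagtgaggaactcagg
Erg intron 3, chr16:95403571-95403709, minus strand: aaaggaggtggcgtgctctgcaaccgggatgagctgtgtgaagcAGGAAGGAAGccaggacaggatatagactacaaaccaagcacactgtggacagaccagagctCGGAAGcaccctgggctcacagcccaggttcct
Erg intron 2, chr16:95449538-95449696, minus strand: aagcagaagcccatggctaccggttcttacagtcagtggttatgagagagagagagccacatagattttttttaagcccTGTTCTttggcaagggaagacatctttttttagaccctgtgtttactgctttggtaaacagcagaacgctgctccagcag
The Erg intron 3 peak held 3 ETS cores, 2 of which overlap each other, and the Erg intron 2 peak held 1 GR half-site. The Pecam1 peak held 1 of each, and the Tek peak held neither. Of the 3 peaks not shown, 1 in Erg intron 2 held a GR half-site, outside the window of 200 bases.

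The promoter sequences of these genes were mixed in base composition. RefSeq promoter windows on GRCm38.p6, from 250 bases before to 50 after the TSS, matched 7 of the 10 genes by symbol with 9 windows. Pecam1, Cdh5 and Vwf were not among them. The ratio of observed to expected CpG was 0.780 at Flt1, 0.689 at Kdr and 0.941 at the most upstream of 3 Erg windows. It was 0.289 at Tie1, 0.202 at Eng, 0.159 at Emcn and 0.149 at Tek, and 0.275 and 0.191 in the other Erg windows. A ratio of at least 0.6 was thus found in 3 of 9 member windows (33.3%), against 49.1% of the 20145 protein-coding windows. The CpG-rich Erg start was not the one with H3K4me3, which lay near the start whose window had a ratio of 0.275. All 4 members with ratios under 0.6 had H3K4me3 at a TSS, with a highest −log10 q between 2.40 and 18.5, against 29.5% of all genes in that class, with a median of 51.3. The 3 members with a ratio of 0.6 or more had H3K4me3 with −log10 q between 2.30 and 25.3, against 94.0% of all genes in that class, with a median of 115. The H3K4me3 of the members was weaker than the median of their class in both classes, as a description of these genes without a test.

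Matches to the ETS core AGGAAG were found in 5 of 9 member windows (55.6%), against 34.2% of all protein-coding windows, and matches to CGGAAG in 1 of 9 (11.1%), against 21.7%. The GATA letters AGATAA were found in 2 of 9 (22.2%, against 9.45%), the GC box GGGCGG in 3 of 9 (33.3%, against 47.8%), and the GR half-site AGAACA in 2 of 9 (22.2%, against 15.9%). The muscle-type E-box CAGCTG was found in 0 of 9, against 15.7% of all windows, and the forkhead motif GTAAACA in 0 of 9, against 2.96%. In windows from 500 before to 100 after the TSS, both of these were found in 2 of 9, against 5446 of 20141 windows for the E-box and 6.38% for the forkhead motif. In the same wider windows AGGAAG was found in 7 of 9 (77.8%, against 55.3%), AGATAA in 2 of 9 (22.2%, against 20.3%) and AGAACA in 4 of 9 (44.4%, against 31.1%), so the GATA share was then near that of all windows. With 9 windows, 3 of them of Erg, a change of 1 window moves such a share by more than 10 percentage points. The 150 bases upstream of the annotated gene start are given for Flt1, the CpG-rich start with the strongest H3K4me3 of the 10, for Eng and Tek, CpG-poor starts with H3K27ac, and for Emcn, a CpG-poor start with H3K4me3 alone. They run 5′ to 3′ on the strand of the gene, and capitals mark either ETS core on either strand.
Flt1 promoter, chr5:147726012-147726161, minus strand: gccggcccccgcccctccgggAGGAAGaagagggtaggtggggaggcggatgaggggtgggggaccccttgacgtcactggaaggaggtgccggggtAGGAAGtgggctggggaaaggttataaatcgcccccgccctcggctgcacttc
Eng promoter, chr2:32646445-32646594, plus strand: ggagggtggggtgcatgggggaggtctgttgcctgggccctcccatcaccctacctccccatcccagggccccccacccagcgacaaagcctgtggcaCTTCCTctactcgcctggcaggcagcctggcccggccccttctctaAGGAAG
Tek promoter, chr4:94739139-94739288, plus strand: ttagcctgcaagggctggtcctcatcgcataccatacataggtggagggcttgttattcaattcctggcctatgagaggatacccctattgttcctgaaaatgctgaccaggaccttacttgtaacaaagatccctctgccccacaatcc
Emcn promoter, chr3:137340917-137341066, plus strand: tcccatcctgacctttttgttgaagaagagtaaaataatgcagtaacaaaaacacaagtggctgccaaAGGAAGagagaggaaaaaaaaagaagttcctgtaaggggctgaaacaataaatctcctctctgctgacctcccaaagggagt
The Flt1 and Eng stretches each held 2 ETS cores, the Emcn stretch held 1, and the Tek stretch held 0.

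Endothelial transcription factor genes had a higher median H3K4me3 −log10 q than the 10 markers, as a description of the lists. H3K27ac bases are counted over a gene's whole region, neighbouring genes included. Of 18 endothelial transcription factor genes, 17 had H3K4me3 at a TSS with a median highest −log10 q of 58.0, 15 had H3K27ac, 13 had Pol2 and 9 had GR. The 9 with GR were Ets1, Ets2, Elk3, Lmo2, Klf2, Klf4, Hey1, Nr2f2 and Meox2. The most H3K27ac in this list was at Lyl1 (11143 bases covered in its region), Nr2f2 (6304) and Klf2 (3529). Of 24 other blood endothelial markers, 18 had H3K4me3 at a TSS, 2 of them above the median of the H3K4me3 list. The median highest −log10 q of those 18 lay between 8.29 for the 10 markers and 14.4 for the fibro-adipogenic markers described below. Weak H3K4me3 was thus not limited to the 10 markers. Of the 24, 15 had H3K27ac, 10 had Pol2 and 4 had GR, namely Esam, Cd34, Rgcc and Cav1. H3K27ac covered most bases at Icam2 (5746), Cav1 (3903) and Rgcc (3248), though Icam2 had no H3K27ac peak within 1 kb of a TSS. Of 18 vascular ligand and co-receptor genes, 16 had H3K4me3 with a median of 36.8, 9 had Pol2 and 7 had GR. This list was led in H3K27ac by Vegfb (7920 bases), Vegfa (6831 bases), which encodes the ligand of the VEGF receptors and had 3 GR and 11 Pol2 peaks within 1 kb of a TSS, and Acvrl1 (5490 bases), which encodes the receptor that acts with endoglin. Of 7 lymphatic endothelial markers, 4 had H3K4me3 at a TSS with a median of 22.4, 1 had Pol2 and 0 had GR. The most H3K27ac was at Pdpn (795 bases), Lyve1 (709) and Prox1 (372), though Lyve1 had no H3K27ac peak within 1 kb of a TSS.

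Markers of the other cell types in muscle gave the same measures a range. Muscle fibre markers had GR at the TSS of 12 of 15 genes and Pol2 at 14, with a median H3K4me3 −log10 q of 38.3 over 12 genes, and H3K27ac covered 24817 bases at Tnnt3, 15169 at Atp2a1 and 14000 at Mb. Housekeeping genes had GR at 13 of 14 and a median of 137. Fibro-adipogenic markers had GR at 6 of 12 and Pol2 at 8, with a median of 14.4 over 10 genes, and the most H3K27ac at Thy1, Pdgfra and Dcn. Satellite cell markers, with the most H3K27ac at Myf5, Itga7 and Notch1, had GR at 3 of 10, Pol2 at 3 and a median of 26.9 over 8 genes. Pericyte and smooth muscle markers, with the most H3K27ac at Des, Abcc9 and Tagln, had GR at 3 of 12, Pol2 at 5 and a median of 18.7 over 6 genes. Des is also expressed in muscle fibres. Blood cell and macrophage markers, with the most H3K27ac at Cd68, Itga2b and Itgb2, had GR at 1 of 14, Pol2 at 1 and H3K4me3 at 3. These H3K27ac ranks cover whole regions, neighbouring genes included. Myf5, Tagln, Cd68 and Itgb2 had no H3K27ac peak within 1 kb of a TSS. Among genes with H3K4me3 at a TSS, the 10 endothelial markers had a lower median −log10 q, 8.29, than each of the 10 other lists. These medians leave out genes without such a peak. They rest on 9 of 10 endothelial markers but on 3 of 14 blood cell and 6 of 12 pericyte and smooth muscle genes. They therefore do not rank the lists as wholes. The endothelial markers had Pol2 at 3 and GR at 0 of 10, and whether they differ from any other list was not tested.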

How the data were processed

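Peaks of 6 ChIP-seq libraries of mouse skeletal muscle nuclei, 1 per antibody, were analysed. Each library took 10 ng of DNA and 7 cycles of PCR, per the labels' protocols. Bowtie 1.0.0, bcl2fastq 2.17.1.14, MACS2 and the build mm10 are named in the submitters' processing notes, without role or threshold. The authors deposited start and end positions for all lists and, for H3K4me3 and CTCF, also a score, a fold (ratio) over control, and −log10 p and −log10 q per peak. The lists carry no header, so columns were identified by value: the score equals 10 times the −log10 q, truncated. Depth is unknown. Mitochondrial peaks were left out. Ly6a is in both the blood endothelial and the fibro-adipogenic list.

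Genes, TSS and exons came from GENCODE M21 on the same build (GRCm38), and introns are counted in the gene's main transcript (APPRIS principal where given). Overlap needed 1 shared base. A peak's percentile is the share of its list with a lower value. Scripts used python 3.11.15 and numpy 2.4.6 and were tested on simulated peaks, with 500 of 500 genes called rightly. Companion genes named are, per list, the 3 with most H3K27ac and, in endothelial lists, those with GR at a TSS; the named genes of the housekeeping list are not reported here. The members, gene lists and motifs were chosen with earlier results of these data known. Alternatives were other windows, midpoints, the widest or strongest 50% of peaks and other TSS sets. Every count is given without a test, since each antibody had 1 library.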

Additional observations from a re-analysis of the deposited data

How the results depend on the processing

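The absence of GR at the 10 start sites held in windows of 500 bases, 2 kb and 5 kb, by midpoint, with the widest 50% of peaks and with protein-coding transcript starts alone, where 31.1% (widest 50%) to 47.3% (5 kb) of all genes had GR. The 9 members with H3K4me3 at a TSS became 0 with the strongest 50% of that list by score (46.4% of all genes), and 1 in the regions (57.9%), with 1 peak in all in place of 21. With the widest 50%, Pol2 was at 0 start sites (31.4% of all genes) and in 1 region (44.5%), with 6 peaks in place of 16, H3K27ac was at 2 start sites (44.7%), with 13 peaks in place of 31, and there were 7 GR peaks in place of 12 and 31 H3K4me1 peaks in place of 62. A window of 10 kb left 7 GR peaks, 7 Pol2 peaks and 2 CTCF peaks, the CTCF peaks in 1 member (22.3% of all genes), and a window of 50 kb gave 23 GR peaks. Counting the peaks whose nearest protein-coding TSS was the member's, a choice made after seeing the data, left 7 GR, 4 Pol2 and 4 CTCF peaks. CTCF was at 1 start site in windows of 2 kb (9.33% of all genes) and of 5 kb (13.4%). When a mark had to cover 50% of an element, 0 elements had H3K4me1 and H3K27ac without H3K4me3. When peaks within 500 bases were joined, 0 elements had H3K27ac only and 2 had no histone mark. The other 110 alternative values over the 10 genes moved no count by over 1.5 times. Of the counts per gene and list, 359 alternative values stayed within 1.5 times and 61 did not, among them the GR peaks of Pecam1 (8 in a window of 50 kb, in place of 2) and of Eng (0 in a window of 10 kb, in place of 5), and the H3K4me1 peaks of Pecam1 and Eng (17 each in a window of 50 kb, in place of 10 and 11). No paired analysis was possible because each antibody had 1 library. Peak calls depend on depth, which is not known here, so a missing peak is one not detected at this depth.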
